A study of Mus musculus with 8 samples.

Results

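Phosphorylated STAT3 sites were examined at 4 mouse cytokine genes, Csf1, Lif, Osm and Il6, in fibroblasts that carried a single STAT3 spliceform. The sites were the peaks of 6 peak lists that overlapped 3 fixed windows of the mm9 genome by 1 bp or more: chr3:107500000-107620000 for Csf1, chr11:4090000-4230000 for Osm and Lif together, and chr5:30290000-30400000 for Il6. Over all lists, 5 of 5343 distinct sites met this rule, from 10 of 7797 listed peaks. The Csf1 window held 3 sites, the Osm and Lif window 1 and the Il6 window 1. All 5 were listed after 30 min of oncostatin M, as were 5338 of all 5343 sites. None was listed without it, where 0.169% of all 30 min sites were. Of the 5, 1 site, in the Csf1 window, was listed again at 180 min, as were 2.4% of all 30 min sites.

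The cells were STAT3-/- mouse embryonic fibroblasts in which STAT3α or STAT3β was re-expressed from a tamoxifen-inducible construct, with 1 cell line per spliceform. Both lines were kept in 1 nM 4-hydroxytamoxifen for at least 48 h and without serum for 16 h, and then received 10 ng/mL human recombinant oncostatin M for 0, 30 or 180 min. Chromatin was precipitated with an antibody against STAT3 phosphorylated at its activating tyrosine and sequenced (ChIP-seq). Each spliceform and time gave 1 peak list from merged duplicates, with 9 (0 min), 3725 (30 min) and 40 (180 min) peaks for STAT3α and 12, 3891 and 120 peaks for STAT3β. The lists give positions only, so library depth and peak height are unknown, no value has a replicate error, and no test between spliceforms or times was possible. A site missing from a list is therefore a site not listed, and its absence does not show that STAT3 was not bound.

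Oncostatin M, leukaemia inhibitory factor and interleukin-6 belong to one cytokine family, whose receptors share the signalling chain gp130. Bound receptors activate JAK kinases, which phosphorylate STAT3 on a tyrosine; the phosphorylated dimer enters the nucleus and binds DNA. STAT3β lacks the C-terminal transactivation domain of STAT3α and keeps the DNA-binding domain. Lif, Osm and Il6 encode members of this family. Csf1 encodes macrophage colony-stimulating factor, which acts through a receptor tyrosine kinase and which fibroblasts are known to secrete.

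The gene table used for names, RefSeq on GRCm38.p6, lists Csf1 (gene ID 12977) on chromosome 3, Osm (18413) and Lif (16878) on chromosome 11, and Il6 (16193) on chromosome 5, the chromosomes of the windows. Among protein-coding genes Osm and Lif are direct neighbours in that table. They are flanked by Castor1 on the Osm side and Hormad2 on the Lif side. Csf1 lies between Ahcyl1 and Eps8l3, and Il6 between Dnajb6 and Tyms. Coordinates of that assembly are not those of the peaks and were not combined with them. Whether a site lies in a promoter, an intron or between genes was thus not analysed here, and a site is named by its window and not assigned to a gene.

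RefSeq promoter sequences were at hand for 3 of the 4 genes, Csf1, Lif and Il6. They are shown because they are the reference sequence of the genes for which the windows were laid, not of the peaks. Each line gives the 250 bases before the gene's start on GRCm38.p6, 5′ to 3′ on the gene's strand, with matches to TGANTCA, the AP-1 motif, in capitals.
Csf1 promoter: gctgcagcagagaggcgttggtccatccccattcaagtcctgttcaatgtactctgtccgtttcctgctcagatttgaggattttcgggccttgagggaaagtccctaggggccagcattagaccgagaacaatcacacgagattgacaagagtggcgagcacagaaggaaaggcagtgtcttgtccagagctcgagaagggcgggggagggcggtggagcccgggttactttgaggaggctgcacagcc
Lif promoter: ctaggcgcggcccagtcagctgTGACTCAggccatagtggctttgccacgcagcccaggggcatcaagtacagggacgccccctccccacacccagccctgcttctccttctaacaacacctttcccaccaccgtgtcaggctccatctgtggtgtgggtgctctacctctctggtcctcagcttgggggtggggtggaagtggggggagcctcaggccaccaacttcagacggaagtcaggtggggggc
Il6 promoter: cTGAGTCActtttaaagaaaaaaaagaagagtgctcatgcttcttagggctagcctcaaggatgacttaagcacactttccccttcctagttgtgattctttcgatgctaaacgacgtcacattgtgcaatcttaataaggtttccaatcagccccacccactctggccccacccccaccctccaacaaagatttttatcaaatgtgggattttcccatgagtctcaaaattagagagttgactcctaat
The core STAT motif TTCNNNGAA, read on both strands, had no match in the 300 bases from 250 before to 50 after the start of these 3 genes. It was present in 8.3% of all 32851 promoters of that length. The forms with 2 bases between the arms, TTCNNGAA, and with 4 bases between the same arms had no match either, and were present in 8.52% and 6.95% of all promoters. TGANTCA had 1 match in the Lif promoter, 228 to 222 bases before the start, and 1 in the Il6 promoter, 249 to 243 bases before it, against 7.81% of all promoters with a match. No base of these promoters was matched by more than 1 motif. These counts describe letters in a window and say nothing of where the peaks lie.

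**Figure D1:**
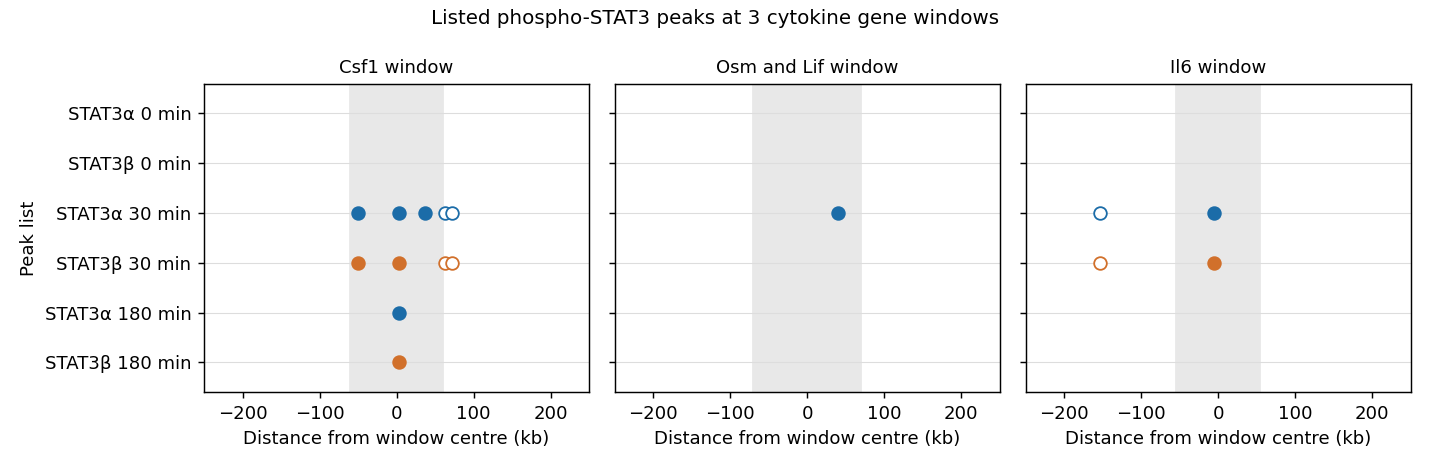
Peaks of the 6 lists (rows) at the Csf1, Osm and Lif, and Il6 windows, by distance of the peak centre from the window centre in kb. Filled points lie inside the window (grey), open points outside it; the Csf1 panel holds 3 filled points for STAT3α and 2 for STAT3β at 30 min, and 1 for each at 180 min.

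Csf1 had the most sites of the 3 windows. Its sites lay at chr3:107510297-107510696, chr3:107563034-107563433 and chr3:107596574-107596973, each 400 bp wide. All 3 were in the STAT3α 30 min list and the first 2 were in the STAT3β 30 min list. This was 25 peaks per Mb for STAT3α and 16.7 for STAT3β, where the whole 30 min lists had 1.47 and 1.53 peaks per Mb between the outermost sites of each chromosome. The third site was in the STAT3α list alone, as were 27.1% of all 5338 sites of the 30 min lists. Of the 30 min sites on chromosome 3, 38.8% were in both 30 min lists and 18.4% in the STAT3α list alone.

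Few stretches of its length held as many sites as the Csf1 window. When the genome was divided end to end into stretches of 120 kb, 1.89% held at least 3 sites and 16.8% held any, and the fullest held 9. These stretches were laid without regard to genes, whereas the window was laid at a named gene. The window edge cut a longer series of sites. Sites at chr3:107622052-107622451 and chr3:107632391-107632790, 2.05 and 12.4 kb past the edge, were in both 30 min lists and in no 180 min list. Together with them the series had 5 sites over 122 kb, all in the STAT3α and 4 in the STAT3β 30 min list. Of all 5343 sites, 69.7% and 72.8% were in those lists. The gaps between centres in the series were 52.7, 33.5, 25.5 and 10.3 kb. To the other side the next site was 875 kb away. Chained at gaps of up to 52.7 kb, a distance taken from this series itself, all sites formed 3579 series, single sites included. Of these, 85 (2.37%) had 5 or more members and the longest had 14. That is a share of series, and the larger share of sites that lie in such series was not computed.

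The middle Csf1 site, chr3:107563034-107563433, was in 4 lists: STAT3α and STAT3β at 30 min and both again at 180 min. It was in neither 0 min list. Of all 30 min sites, 0.506% were in both 180 min lists and 2.4% in either, which sets the background for 1 of 5 sites (20%, 95% exact Clopper-Pearson interval 0.505 to 71.6%, counting error over sites only). It was 1 of 4 sites on chromosome 3 listed at 180 min. The site at chr3:65331908-65332307 had the same pattern of lists, and those at chr3:95462428-95462827 and chr3:122424366-122424765 were listed at 180 min for STAT3β only. None of the 4 other sites of the Csf1 series was listed at 180 min. Of the 27 sites in both 180 min lists, 20 (74.1%, interval 53.7 to 88.9%) had another site within 100 kb, and so did 66.6% of all 5343 sites, a value inside that interval. In 2 of those 20 (10%, interval 1.2 to 31.7%) at least 1 neighbour was also listed at 180 min. Of all 30 min sites, 2.4% were listed at 180 min in either list. That is a share of single sites, whereas a site with several neighbours has several that may be listed late. These 2 shares are therefore not alike, and the share of all sites with a late neighbour was not computed.

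The number of neighbours did not set the late Csf1 site apart within this group of 27. It had 4 other sites within 100 kb, as many as or fewer than 8 of the 27 (29.6%, interval 13.8 to 50.2%, the Csf1 site counted). Over all 5343 sites, 12.8% had 4 or more others within 100 kb, and the median was 1. The number 4 was taken from the Csf1 site itself, which is also counted among the 8. The interval therefore cannot be used to set the late sites against all sites. The share of all sites depended on the distance. Within 50 kb the Csf1 site had 1 neighbour, a number that 51.5% of all sites reached. Within 200 kb it had 4, reached by 28.3%. The STAT3α-only site at chr3:107596574-107596973 also had 4 neighbours within 100 kb, and it lay between sites of both lists. Of all 1447 STAT3α-only sites, 31.9% had a site of both lists within 50 kb on either side. That is a looser trait than lying between such sites, a share that was not computed.

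**Figure D2:**
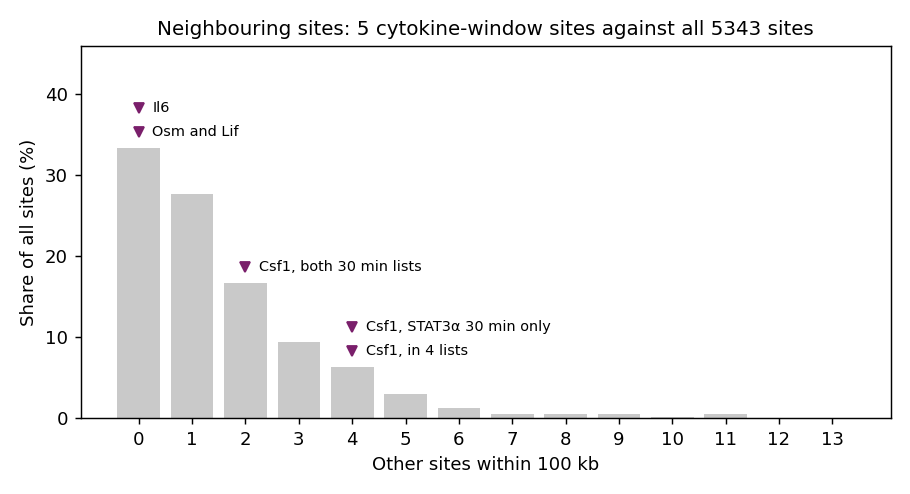
Share of all 5343 sites (grey bars, percent) by the number of other sites whose centres lie within 100 kb, with the 5 window sites marked by triangles above the bar of their own number. Il6 and the Osm and Lif site stand at 0, and the Csf1 sites at 2, 4 and 4; triangle height carries no value.

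Il6, which encodes the family's namesake interleukin-6, had 1 site, at chr5:30339259-30339658. It was in the STAT3α and STAT3β 30 min lists and in no 0 or 180 min list. Both spliceforms thus had 9.09 peaks per Mb in this window at 30 min and 0 at 180 min. Of all stretches of 110 kb, 15.8% held a site, so 1 site in a window of this length was not rare. Of all 30 min sites, 42.7% were in both 30 min lists, and of those on chromosome 5 the share was 45.0%. The Il6 site stood alone. Its nearest neighbour, chr5:30190899-30191298, was 148 kb away, outside the window, and was also in both 30 min lists, and the next site on the other side was 1525 kb away. Of all sites with a neighbour on their chromosome, 24.7% had their nearest one farther away, and the median distance was 46.2 kb.

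Osm encodes mouse oncostatin M, whose human counterpart was the stimulus here, and Lif is the family member next to it on the chromosome. Their common window held 1 site, at chr11:4199177-4199576. It was in the STAT3α 30 min list alone. No peak of the STAT3β lists lay in the window at any time, and none of either spliceform at 0 or 180 min. The lists do not tell which of these neighbouring genes, if either, the site belongs to, so Osm and Lif cannot be counted separately. Of all stretches of 140 kb, 18.9% held a site. On chromosome 11, 25.3% of the 30 min sites were in the STAT3α list alone. This was the most isolated of the 5 sites on its nearer side, 307 kb from its nearest neighbour, and 12.3% of all sites were farther from theirs. That neighbour, chr11:4506617-4507016, was in the STAT3β 30 min list alone, and the next site on the other side, chr11:3814085-3814484, 385 kb away, was in the STAT3α 30 min list alone.

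The unstimulated lists held no peak in any of the 3 windows. Positions of 100 Mb and more had been rounded in these lists for 2 STAT3α and 4 STAT3β peaks. None of the rounded peaks was on chromosome 3 or 5, and the 2 on chromosome 11 were 96.8 Mb or more from the Osm and Lif window by their rounded positions, so rounding hid no peak there. Of all 5343 sites, 0.131% were in the STAT3α and 0.15% in the STAT3β 0 min list, and of all 30 min sites 0.169% were in either. These shares leave out the rounded peaks, 2 of 9 for STAT3α and 4 of 12 for STAT3β, so the full shares may be slightly higher. The absence of the 5 cytokine window sites was therefore shared by nearly all sites of the series.

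**Figure D3:**
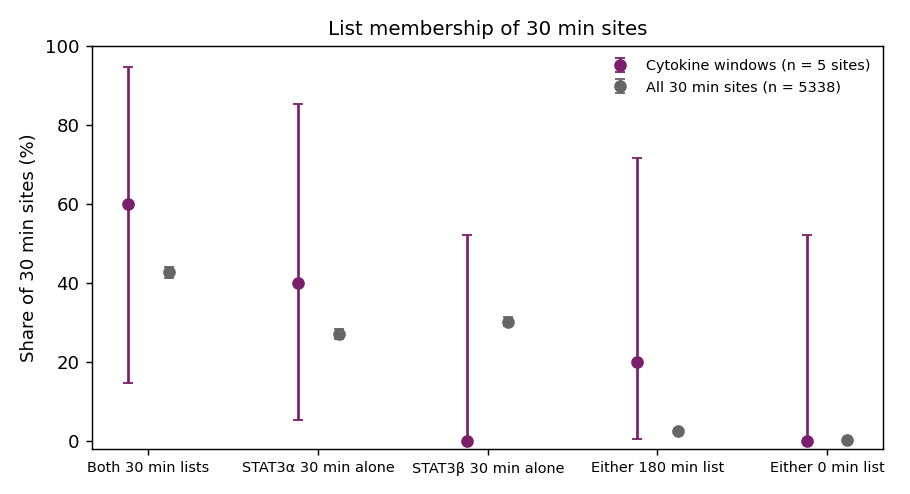
Share of 30 min sites (percent, with 95% exact Clopper-Pearson intervals) by the lists that hold them, for the 5 sites of the cytokine windows (purple) and all 5338 sites (grey). The points for the windows are 60%, 40%, 0%, 20% and 0% from left to right, and each of the 5 intervals takes in the value of all sites.

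Over the 3 windows together, 3 of 5 sites (60%, interval 14.7 to 94.7%) were in both 30 min lists, against 42.7% of all sites. Another 2 of 5 (40%, interval 5.27 to 85.3%) were in the STAT3α list alone, against 27.1%, and 0 of 5 (interval 0 to 52.2%) in the STAT3β list alone, against 30.2%. The intervals treat sites as independent, although 3 of the 5 lie in the Csf1 window, and they show how little 5 sites can tell. They are given as a description, and the windows were not tested against the other sites. The STAT3α list at 30 min held 5 of the 5 sites and the STAT3β list 3, where 69.7% and 72.8% of all 5343 sites were in those lists. The 180 min lists held 1 of the 5 each, beside 0.749% of all sites for STAT3α and 2.25% for STAT3β.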

How the data were processed

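Tyrosine-phosphorylated STAT3 was mapped by ChIP-seq in 6 samples with 1 peak list each; the 2 input DNA samples were not used. The build is mm9, and MACS2 (2.1.1.20160309), HOMER (4.9), STAR (2.5.0a), Trim Galore (0.4.2) and bedtools are listed as tools, per the submitters' processing notes. What each tool did and which peak threshold applied is not stated there. Per the labels, chromatin was sheared to 200 to 500 bp and the reads of duplicates were merged. The deposited lists give chromosome, start, end and name, with no score or read count, so depth is unknown.

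Peaks were converted to positions counted from 1 and merged into sites where they overlapped by 1 bp; overlapping peaks of different lists had identical ends. Rounded 0 min positions (6 peaks) were left out. Every site in a window was named, with the nearest sites outside it. Shares carry 95% exact binomial intervals. Distances run between centres. Genome stretches were laid from the first listed site of each chromosome. Other gp130 family genes were planned but need an mm9 annotation and were not analysed here. The genes, windows and lists were chosen with earlier results of these data known, so their shares are set beside those of all sites as a description, with no test. The merging function, tested on simulated data, recovered 200 of 200 planted shared peaks against the 3725 STAT3α 30 min peaks. Python 3.11.15, scipy 1.17.1, numpy 2.4.6 and matplotlib 3.10.9 were used.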

Additional observations from a re-analysis of the deposited data

How the results depend on the processing

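Of 95 alternative values for 27 results, 89 stayed within the set limits (1.5 times a count, or the 95% interval of a share); most concern counts of 0 or 1, which say little about stability. The exceptions all concern Csf1. With the window widened by 50 kb on each side, its sites went from 3 to 5 and its 30 min peaks from 3 to 5 for STAT3α and from 2 to 4 for STAT3β, as the wider window takes in the next 2 sites. Narrowed by 20 kb on each side, it held 2 sites, of which the STAT3β list had 1. The share of all sites with as many neighbours as the late Csf1 site went from 12.8% to 51.5% within 50 kb and 28.3% within 200 kb; these distances were chosen after seeing the data. No alternative changed the Osm and Lif or Il6 counts. A stricter peak threshold could not be tried, because the lists hold no score. No paired analysis was possible because each spliceform and time has 1 list. Depth is unknown, so list length, spliceform and cell line cannot be told apart.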
